A study of Mus musculus with 6 samples.

Results

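The unfolded protein response (UPR) and the folding machinery of the endoplasmic reticulum (ER) were examined as a set of 35 mouse genes in cultured neonatal ovaries. The set was chosen by gene symbol, from known roles in the response, but with earlier results of these data known. Members were found by their symbol in the comparison sheet that the authors deposited. Of the 35 genes, 29 had an entry under their symbol, with 46 array probes of 25697 in all, which carry 18138 symbols. Vimp, Ppp1r15a and Manf are listed under older names and were matched by RefSeq accession only, so their 4 probes, and 1 more probe of Derl2, are given apart. Eif2ak3, Atf6 and Sdf2l1 were found in the sheet in neither way, so no array values are given for them. Of these, Eif2ak3 and Sdf2l1 entered the promoter search below.

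Ovaries of Swiss mice at postnatal day 3 to 4 were kept in organ culture for 96 h on inserts over a serum-containing medium that also held basic fibroblast growth factor, leukemia inhibitory factor and stem cell factor. Of the samples, 3 were exposed to 3-methylcholanthrene (3MC) at 5 µM, a concentration picked by the submitters, after pilot work, for overt toxicity. This compound is a polycyclic hydrocarbon and an agonist of the aryl hydrocarbon receptor. The other 3 samples were exposed to the vehicle, dimethyl sulfoxide (DMSO) at 0.01%, and the labels do not say whether the 3MC medium held DMSO as well. Each sample was read on 1 Illumina Mouse Ref-8 v2 BeadChip, and neither pooling of ovaries nor separate cultures or animals are stated, so p-values reflect how far these arrays spread, and that spread may be technical.

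Proteins that enter the ER are folded by chaperones and oxidoreductases, and an excess of unfolded protein is sensed by 3 membrane proteins. PERK (gene Eif2ak3) phosphorylates the translation factor eIF2-alpha, which slows translation but raises that of the transcription factor ATF4, whose targets include amino acid synthesis and stress genes. IRE1 (gene Ern1) splices the Xbp1 mRNA, and the XBP1 protein so made induces genes of ER-associated degradation (ERAD), which returns misfolded proteins to the cytosol for destruction. ATF6 is cut in the Golgi, and its released part induces chaperones through a promoter motif called the ER stress element. Growing oocytes and the follicle cells around them secrete large amounts of glycoprotein and matrix, which pass through this machinery.

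Promoter sequences of the members are shown first as a description. The arms were set from known roles of the genes and not from these matches. Of the genes with an ER stress element below, Calr, Syvn1 and Creld2 were put under ATF6 and Derl3 under IRE1-XBP1. Pdia6, Ero1lb and Canx were not put in an arm. RefSeq promoters (assembly GRCm38.p6, from 250 bases before to 50 after the start of each gene) were given for 30 of the 35 members. The ER stress element, searched on both strands as CCAAT, then 9 bases of any kind, then CCACG, was in the promoters of 7 of these 30 members (23.3%), against 39 of all 32851 promoters (0.119%). All 7 windows are printed in the orientation of the gene with 10 bases on each side, and capitals mark both fixed ends of the element. The match lies between 44 and 201 bases before the start.
Calr, chr8:84847065-84847103, minus strand: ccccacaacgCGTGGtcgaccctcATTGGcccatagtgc
Pdia6, chr12:17266481-17266519, plus strand: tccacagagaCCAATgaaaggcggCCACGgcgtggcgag
Ero1lb, chr13:12565672-12565710, plus strand: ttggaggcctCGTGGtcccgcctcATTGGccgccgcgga
Syvn1, chr19:6046522-6046560, plus strand: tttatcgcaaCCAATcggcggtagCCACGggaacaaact
Creld2, chr15:88819510-88819548, plus strand: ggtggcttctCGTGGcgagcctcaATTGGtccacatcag
Derl3, chr10:75893232-75893270, plus strand: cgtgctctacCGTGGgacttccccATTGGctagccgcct
Canx, chr11:50325790-50325828, minus strand: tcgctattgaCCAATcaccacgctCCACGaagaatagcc

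The element of Hspa5, the gene of the ER chaperone BiP and no member of the set, lies 65 bases before its start and is shown for comparison. The ATF4 element, searched on both strands as TGATGCAA, was in the promoters of 3 of the 30 members, against 294 of 32851 (0.895%). Its capitals below mark the element, which stands in the reverse orientation in all 3 genes. The unfolded protein response element TGACGTGG was in 0 of the 30 member promoters and in 222 of 32851 (0.676%). A match describes these letters only, and the lack of a match says nothing about binding of the factor elsewhere. Other forms of these motifs, which may lie in the same promoters, were not searched.
Hspa5, chr2:34772015-34772053, plus strand: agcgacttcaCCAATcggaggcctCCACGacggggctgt
Chac1, chr2:119351039-119351066, plus strand: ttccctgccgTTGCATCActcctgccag
Nupr1, chr7:126625563-126625590, minus strand: aagggccagaTTGCATCAgacagggctt
Herpud1, chr8:94386307-94386334, plus strand: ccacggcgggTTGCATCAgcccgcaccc

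Across the members, 11 of 37 probes changed with 3MC, 9 of them upward and 2 downward. They came from every group of genes except the sensors and their transcription factors, of which only Atf4 and Xbp1 had tested probes. Calr, Trib3, Pdia6 and Selk rose by 1.29-fold to 1.57-fold, and 1 of 4 Edem2 probes fell 1.66-fold. Of other widely read targets, Asns, Nupr1, Sec61b, Edem1 and Hyou1 each had 1 probe that rose, by smaller folds, and Ddit3, Chac1, Herpud1 and Pdia4 had none that passed. The share of member probes that passed (29.7%) was near that of all probes tested, of which 32.2% passed, 15.8% upward and 16.4% downward. Values are normalized log2 signal, and a probe was tested where its mean signal lay above that of the median probe. This held for 37 of the 46 probes, from 25 genes, and a probe passed at an adjusted p under 0.05 in limma's moderated test over 12848 probes.

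The median log2 fold change of the 37 member probes was 0.10, with 25 above 0 and 12 below, and that of all probes tested was -0.0015. The 3MC and DMSO arrays did not overlap at 16 of the 37 member probes, against 42.4% of all probes tested. For 34 of the 37 the 95% interval of the fold change lay within 1.5-fold in both directions, which held for 88.2% of all probes tested. The 26 probes that did not pass had log2 fold changes between -0.17 and 0.21. With each array centred on its median in place of quantile normalization, 1 member probe passed, an Edem2 probe, against 8.61% of all probes, and the median of the members was 0.0013 against -0.08 for all probes. The share of upward calls over all probes was then 31.0%, against 49.0% after quantile normalization.

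**Figure D1:**
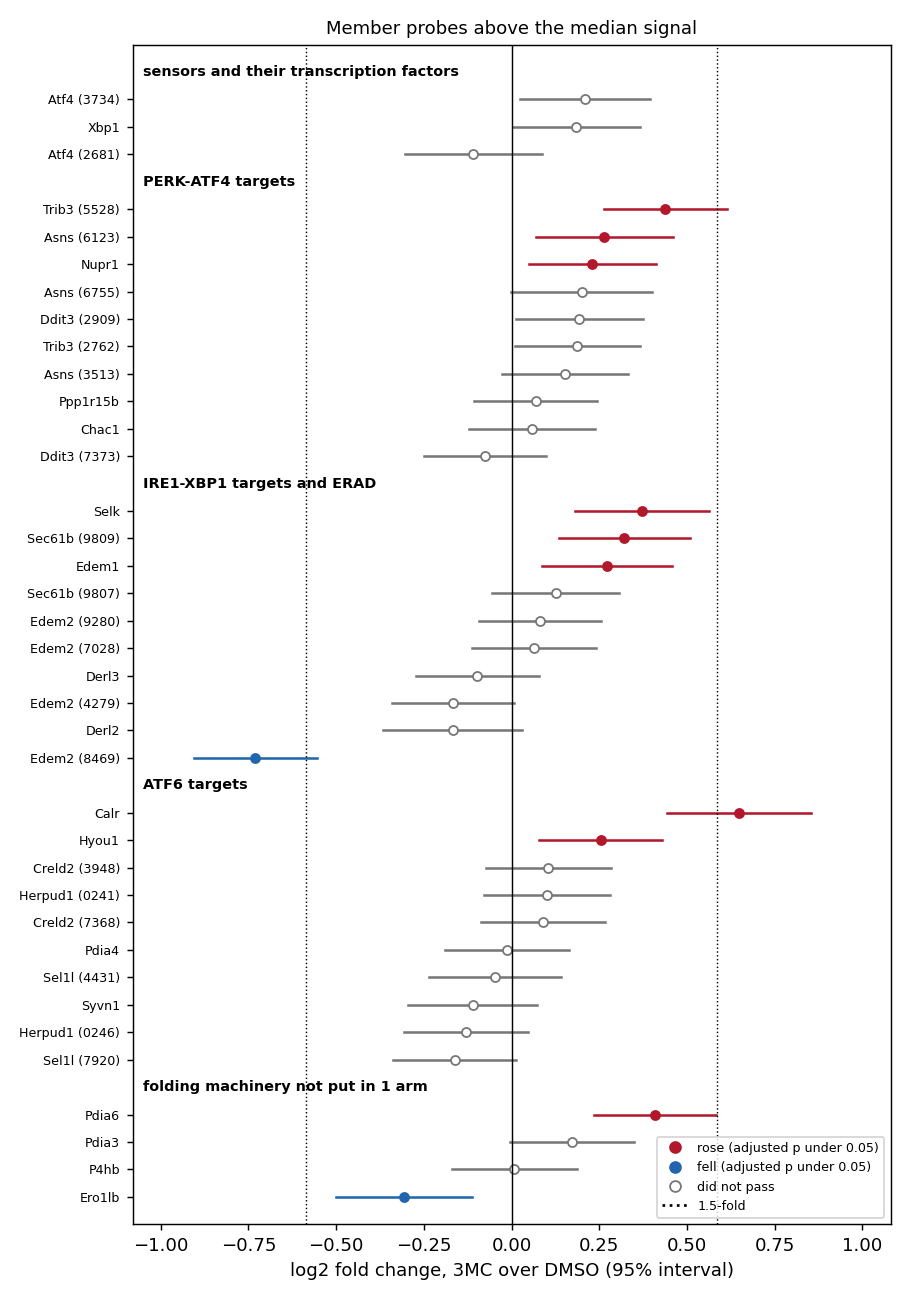
Log2 fold change of 3MC over DMSO (x axis) with its 95% interval for the 37 member probes tested, by arm, with red filled points for probes that rose, blue for those that fell and open points for those that did not pass. Numbers in parentheses are the last 4 digits of the probe identifier, dotted lines mark 1.5-fold, and 34 intervals lie between them, with Calr and 1 probe each of Trib3 and Edem2 reaching past.

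Among the sensors and their transcription factors, none of 3 tested probes passed. All 3 were of the transcription factors Atf4 and Xbp1, and no sensor gene (Ern1, Eif2ak3 or Atf6) had a tested probe. Xbp1 (probe ILMN_2431237, chromosome 11) had a log2 signal of 11.83, 11.97 and 11.74 in the 3MC arrays, against 11.62, 11.79 and 11.57 in the DMSO arrays. The 3MC values lay higher on average, but the lowest 3MC array was below the highest DMSO array. Its log2 fold change was 0.19 (95% interval 0.00 to 0.37, adjusted p = 0.113 in limma). The array probe reads the amount of Xbp1 mRNA and does not tell its spliced from its unspliced form.

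Atf4, the transcription factor that PERK signalling raises mainly at the level of translation, gave probes of opposite sign. They differ in brightness, with mean signals above 59.7% of all probes for ILMN_1223734 and above 94.6% for ILMN_2642681. At ILMN_1223734 (chromosome 15) the log2 signal was 6.73, 6.68 and 6.99 in the 3MC arrays, against 6.64, 6.49 and 6.64 in the DMSO arrays, a log2 fold change of 0.21 (0.02 to 0.40, adjusted p = 0.0772 in limma). At the second probe, ILMN_2642681, it was 10.22, 10.48 and 10.54 in the 3MC arrays, against 10.37, 10.71 and 10.48 in the DMSO arrays, a log2 fold change of -0.11 (-0.30 to 0.09, adjusted p = 0.423). The arrays were apart at the first probe and overlapped at the second, and without 3MC replicate 2 the first probe passed (log2 0.28, adjusted p = 0.0442). The single probe of Ern1, the IRE1 kinase and nuclease, was dim, which means that its mean signal was below that of the median probe. Its log2 signal was 5.96 to 6.10 in the 3MC arrays, against 5.85 to 5.99 in the DMSO arrays.

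Of 10 tested probes of PERK-ATF4 targets, 3 rose, none fell and 7 did not pass, and 9 of the 10 had a log2 fold change above 0. Their median was 0.19 (0.09 with median centring). Of all 12848 probes tested, 15.8% rose, 16.4% fell and 6378 were above 0. The 10 probes are not independent, since Trib3, Asns and Ddit3 gave more than 1 each. The Trib3 probe ILMN_1252762 and the Asns probe ILMN_2636755 had DMSO means of 6.27 and 6.19. The median probe had 6.28, so these were tested only through their 3MC signal. Trib3 encodes a pseudokinase that ATF4 and CHOP induce and that feeds back on ATF4. Its probe ILMN_1225528 (chromosome 2) had a log2 signal of 7.57, 7.61 and 7.60 in the 3MC arrays, against 7.24, 7.02 and 7.21 in the DMSO arrays. All 3MC arrays lay above all DMSO arrays, and Trib3 rose 1.36-fold at this probe (log2 0.44 ± 0.087, SE, n = 3 per group, adjusted p = 0.000149 in limma). The call was lost with median centring (log2 0.36, adjusted p = 0.168). The second tested Trib3 probe gave 0.19 (adjusted p = 0.102), and ILMN_1244279, which was dim, gave 0.21 with no overlap between groups (adjusted p = 0.0702 when dim probes entered the limma test).

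Asns, asparagine synthetase, is induced by ATF4 when amino acids are short. At ILMN_3006123 (chromosome 6) its log2 signal was 8.42, 8.13 and 8.55 in the 3MC arrays, against 8.19, 7.98 and 8.14 in the DMSO arrays, and 3MC replicate 2 lay within the DMSO range. The difference passed, at 1.201-fold (log2 0.26 ± 0.096, SE, n = 3 per group, adjusted p = 0.0324 in limma). Leaving out 3MC replicate 1 ended the call (adjusted p = 0.0874), as did leaving out 3MC replicate 3 (adjusted p = 0.224) or DMSO replicate 2 (adjusted p = 0.163). The other Asns probes had log2 fold changes of 0.20 (adjusted p = 0.125) and 0.15 (adjusted p = 0.195), and without 3MC replicate 3 the first of them, ILMN_2636755, passed at 0.35 (adjusted p = 0.00884).

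Nupr1, a stress-induced chromatin protein, had a log2 signal of 10.83, 11.08 and 11.10 in the 3MC arrays, against 10.73, 10.83 and 10.77 in the DMSO arrays. The groups touched without overlapping, with 3MC replicate 1 next to DMSO replicate 2. Nupr1 rose 1.17-fold (log2 0.23 ± 0.089, SE, n = 3 per group, adjusted p = 0.0450 in limma), and the call was lost when any of 5 of the 6 arrays was left out, all except 3MC replicate 1, with adjusted p up to 0.181. It was also lost when dim probes entered the test (adjusted p = 0.0570).

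Ddit3 encodes CHOP, the transcription factor most often read as a sign of a lasting UPR, and its probes had opposite signs. At ILMN_2652909 (chromosome 10) the log2 signal was 8.44, 8.50 and 8.71 in the 3MC arrays, against 8.41, 8.41 and 8.26 in the DMSO arrays, a log2 fold change of 0.19 (0.01 to 0.38, adjusted p = 0.0967 in limma). At ILMN_2927373 it was 7.60, 7.498 and 7.54 in the 3MC arrays, against 7.55, 7.70 and 7.60 in the DMSO arrays, a log2 fold change of -0.07 (-0.25 to 0.10, adjusted p = 0.546). The groups were apart at the first and overlapped at the second. Chac1, a glutathione-degrading enzyme downstream of ATF4, had 8.21, 8.43 and 8.37 in the 3MC arrays, against 8.25, 8.21 and 8.38 in the DMSO arrays. These overlapped, with a log2 fold change of 0.06 (-0.12 to 0.24, adjusted p = 0.659). The regulatory subunits that return eIF2-alpha phosphorylation to baseline gave log2 fold changes of 0.07 for Ppp1r15b (adjusted p = 0.591) and, matched by accession, 0.01 for Ppp1r15a (adjusted p = 0.937).

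Of 10 tested probes of IRE1-XBP1 targets and ERAD genes, 3 rose, 1 fell and 6 did not pass, with a median log2 fold change of 0.07 (-0.02 with median centring). The shares over all probes tested were 15.8% upward and 16.4% downward. Edem2, which trims mannose from misfolded glycoproteins and so starts their removal, held the member probe with the smallest adjusted p. At ILMN_2918469 (chromosome 2) its log2 signal was 6.90, 6.91 and 6.78 in the 3MC arrays, against 7.68, 7.59 and 7.51 in the DMSO arrays. All 3MC arrays were well below all DMSO arrays, and this probe fell 1.66-fold (log2 -0.73 ± 0.087, SE, n = 3 per group, adjusted p = 1.98e-08 in limma). It passed under every alternative that tested it, with median centring at -0.79 (adjusted p = 0.00184).

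The other Edem2 probes did not share that difference. ILMN_2684279 had 11.30, 11.21 and 11.20 in the 3MC arrays, against 11.44, 11.33 and 11.43 in the DMSO arrays, apart but with a log2 fold change of -0.17 (adjusted p = 0.135 in limma). ILMN_1237028 and ILMN_2669280 gave 0.06 (adjusted p = 0.624) and 0.08 (adjusted p = 0.508), and their groups overlapped. The authors' deposited table gives all 4 probes the same RefSeq accession, with a ratio of 0.665 at ILMN_2918469 and of 0.885, 1.03 and 1.05 at the others. Which part of the transcript each probe reads was not analysed here, so the fall belongs to 1 probe and is not a value for the gene.

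Selk, a selenoprotein of the ER membrane that binds the ERAD machinery, had a log2 signal of 8.69, 9.03 and 8.74 in the 3MC arrays, against 8.57, 8.35 and 8.41 in the DMSO arrays. The groups were apart, and Selk rose 1.29-fold (log2 0.37 ± 0.094, SE, n = 3 per group, adjusted p = 0.00228 in limma). Sec61b, a subunit of the channel through which new proteins enter the ER, had 8.998, 9.18 and 8.81 in the 3MC arrays, against 8.68, 8.62 and 8.72 in the DMSO arrays, at ILMN_2609809. It rose there by 0.32 ± 0.092 on the log2 scale (SE, n = 3 per group, adjusted p = 0.00673), a call lost without 3MC replicate 2 (log2 0.23, adjusted p = 0.0825). Its second probe gave 0.13 (adjusted p = 0.300).

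Edem1, like Edem2 a lectin-like protein that directs misfolded glycoproteins to ERAD, had 6.59, 6.61 and 6.35 in the 3MC arrays, against 6.31, 6.32 and 6.11 in the DMSO arrays. The lowest 3MC array was just above the highest DMSO array, and Edem1 rose 1.21-fold (log2 0.27 ± 0.092, SE, n = 3 per group, adjusted p = 0.0215 in limma). Its mean was 6.52 in the 3MC arrays and 6.25 in the DMSO arrays, and the median probe had 6.28. This Edem1 probe was thus tested only through its 3MC signal. The call was lost without 3MC replicate 1 (adjusted p = 0.0921), and likewise without 3MC replicate 2 (0.101) or DMSO replicate 3 (0.148), and with the authors' log2 values (0.0640). The other Edem1 probe was dim, with a log2 fold change of 0.03. The derlins, which form part of the channel that draws substrates out of the ER, gave -0.17 for Derl2 (adjusted p = 0.197) and -0.10 for Derl3 (adjusted p = 0.423). Without DMSO replicate 3 this Derl2 probe, ILMN_2685125, passed at -0.28 (adjusted p = 0.0371), while the Derl2 probe matched by accession gave 0.01 (adjusted p = 0.973). Both Derl1 probes and another Derl2 probe were dim, and the Vimp probes, matched by accession, gave 0.05 and -0.01.

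Of 10 tested probes of ATF6 targets, 2 rose, none fell and 8 did not pass, with a median log2 fold change of 0.04 (-0.08 with median centring). The shares over all probes tested were 15.8% upward and 16.4% downward. Calr encodes calreticulin, the soluble lectin chaperone of the ER, which also binds calcium there. Its log2 signal (ILMN_2861176, chromosome 8) was 10.44, 10.31 and 10.49 in the 3MC arrays, against 9.45, 9.99 and 9.85 in the DMSO arrays. Every 3MC array was above every DMSO array, DMSO replicate 1 being the lowest of all. Calr rose 1.57-fold (log2 0.65 ± 0.10, SE, n = 3 per group, adjusted p = 4.26e-06 in limma), with 0.49 to 0.76 as each array was left out in turn. With median centring it was 0.51 and did not pass (adjusted p = 0.0672).

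Hyou1, a large chaperone that serves as exchange factor for BiP, had 7.02, 7.13 and 6.94 in the 3MC arrays, against 6.73, 6.76 and 6.84 in the DMSO arrays. The groups were apart, and Hyou1 rose 1.19-fold (log2 0.25 ± 0.086, SE, n = 3 per group, adjusted p = 0.0228 in limma). The call was lost without 3MC replicate 2 (adjusted p = 0.105), DMSO replicate 1 (adjusted p = 0.0854) or DMSO replicate 2 (adjusted p = 0.0631).

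The remaining ATF6 targets gave no probe that passed. Herpud1, a membrane protein that organises the ERAD complex, had 10.56, 10.72 and 10.56 in the 3MC arrays, against 10.84, 10.73 and 10.66 in the DMSO arrays at ILMN_2790246, a log2 fold change of -0.13 (adjusted p = 0.270 in limma). At its second probe, ILMN_2790241, it had 11.16, 11.28 and 11.21 in the 3MC arrays, against 11.24, 11.14 and 10.97 in the DMSO arrays, a log2 fold change of 0.10 (adjusted p = 0.421). Both pairs of groups overlapped, and the signs differed. Pdia4, an ER disulfide isomerase, had a log2 fold change of -0.01 (-0.19 to 0.16, adjusted p = 0.930), and the Creld2 probes, for a secreted ER stress protein, gave 0.09 and 0.11 (adjusted p = 0.463 and 0.391). Syvn1, the ERAD ubiquitin ligase, gave -0.11 (adjusted p = 0.377), and its partner Sel1l gave -0.16 (adjusted p = 0.156) and -0.05 (adjusted p = 0.739). Manf, a secreted ER stress factor matched by accession, was dim.

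Of 4 tested probes of folding genes that were not put in 1 arm, 1 rose, 1 fell and 2 did not pass, against 15.8% upward and 16.4% downward over all probes tested. Pdia6, a disulfide isomerase that works with BiP, had a log2 signal of 8.18, 8.34 and 8.20 in the 3MC arrays, against 7.87, 7.84 and 7.78 in the DMSO arrays. The groups were clearly apart, and Pdia6 rose 1.33-fold (log2 0.41 ± 0.086, SE, n = 3 per group, adjusted p = 0.000315 in limma), or 0.30 with median centring, which did not pass (adjusted p = 0.267). Ero1lb, the oxidase that reloads disulfide isomerases, had 8.93, 8.52 and 8.56 in the 3MC arrays, against 9.01, 8.97 and 8.94 in the DMSO arrays. All 3MC arrays were lower, 3MC replicate 1 by little, and Ero1lb fell 1.24-fold (log2 -0.31 ± 0.095, SE, adjusted p = 0.0125). This call was lost without 3MC replicate 2 (log2 -0.23, adjusted p = 0.106), without 3MC replicate 3 (log2 -0.25, adjusted p = 0.0806) and with a background offset of 16 (adjusted p = 0.0510).

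Pdia3, the isomerase that acts with calreticulin and calnexin on glycoproteins, had 12.54, 12.72 and 12.47 in the 3MC arrays, against 12.37, 12.40 and 12.44 in the DMSO arrays. These did not overlap, yet the log2 fold change of 0.17 (-0.01 to 0.35) did not pass (adjusted p = 0.134 in limma). P4hb, the archetypal disulfide isomerase, had 12.78, 12.74 and 12.80 in the 3MC arrays, against 12.62, 12.86 and 12.81 in the DMSO arrays, a log2 fold change of 0.01 (-0.17 to 0.19, adjusted p = 0.957). The probes of Canx, the membrane-bound partner of calreticulin, and of Ero1l, the second oxidase, were dim. The 9 dim member probes had log2 fold changes from -0.01 to 0.21.

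**Figure D2:**
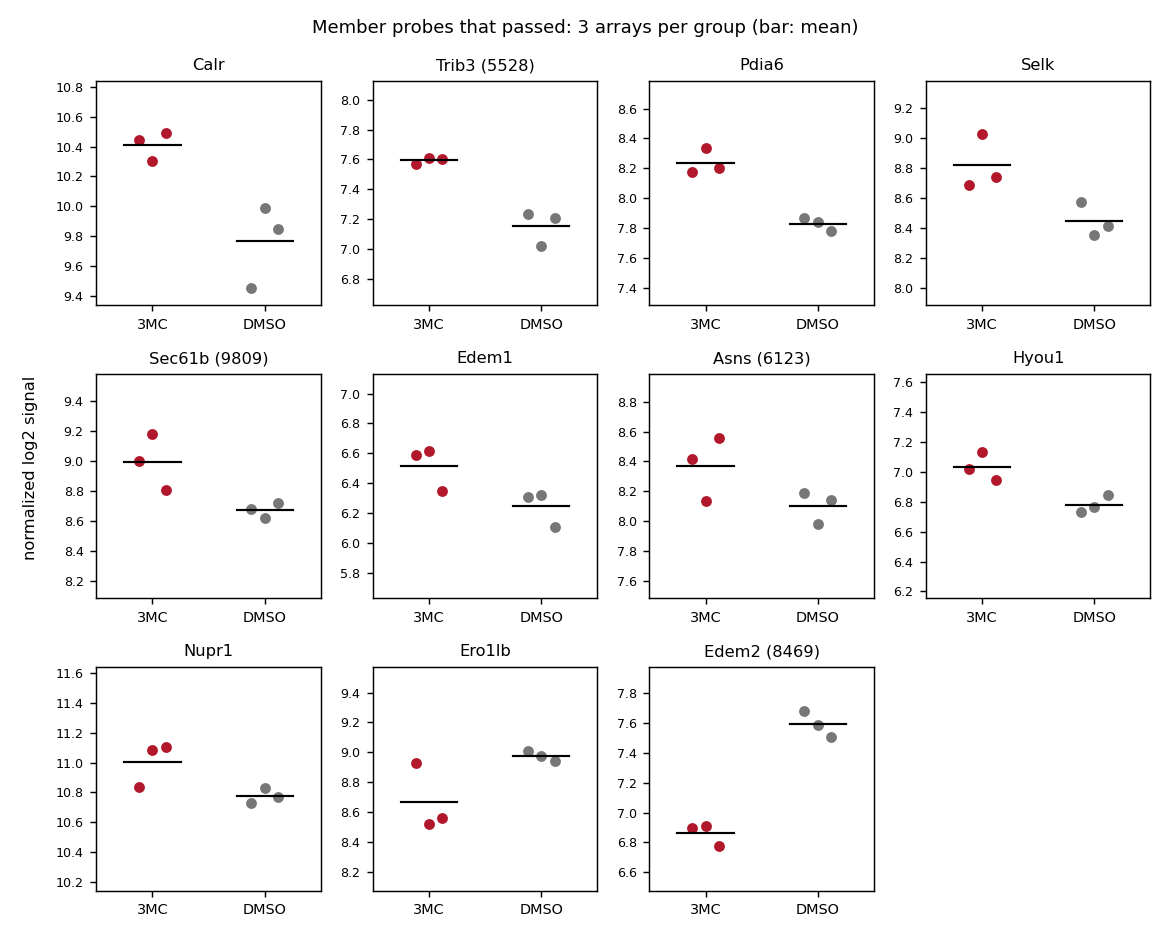
Normalized log2 signal (y axis) in the 3 3MC arrays and the 3 DMSO arrays for each of the 11 member probes that passed, with a bar at the group mean and the same height of scale in every panel. The groups do not overlap in 10 of the 11 panels, the exception being Asns, and Edem2 and Ero1lb are the panels in which 3MC lies lower. The panels were picked by the test on these same arrays, so the gaps add no further support. Of all 37 member probes tested 16 were apart, against 42.4% of all probes tested.

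Of the 9 members with several tested probes, 4 had probes of both signs: Atf4, Ddit3, Herpud1 and Edem2. Trib3, Asns and Sec61b each had 1 probe that rose and others of the same sign that did not pass. The 7 members with an ER stress element in the printed window had 8 probes, of which 7 were tested and that of Canx was dim. Of the 7 tested, 2 rose (Calr and Pdia6), 1 fell (Ero1lb) and 4 did not pass (Derl3, Syvn1 and both of Creld2). Their median log2 fold change was 0.09. Of the 3 members with an ATF4 element, Nupr1 rose, and Chac1 and both Herpud1 probes did not pass. Over all probes tested, 15.8% rose and 16.4% fell, and with so few probes nothing about the motifs is read from these counts.

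**Figure D3:**
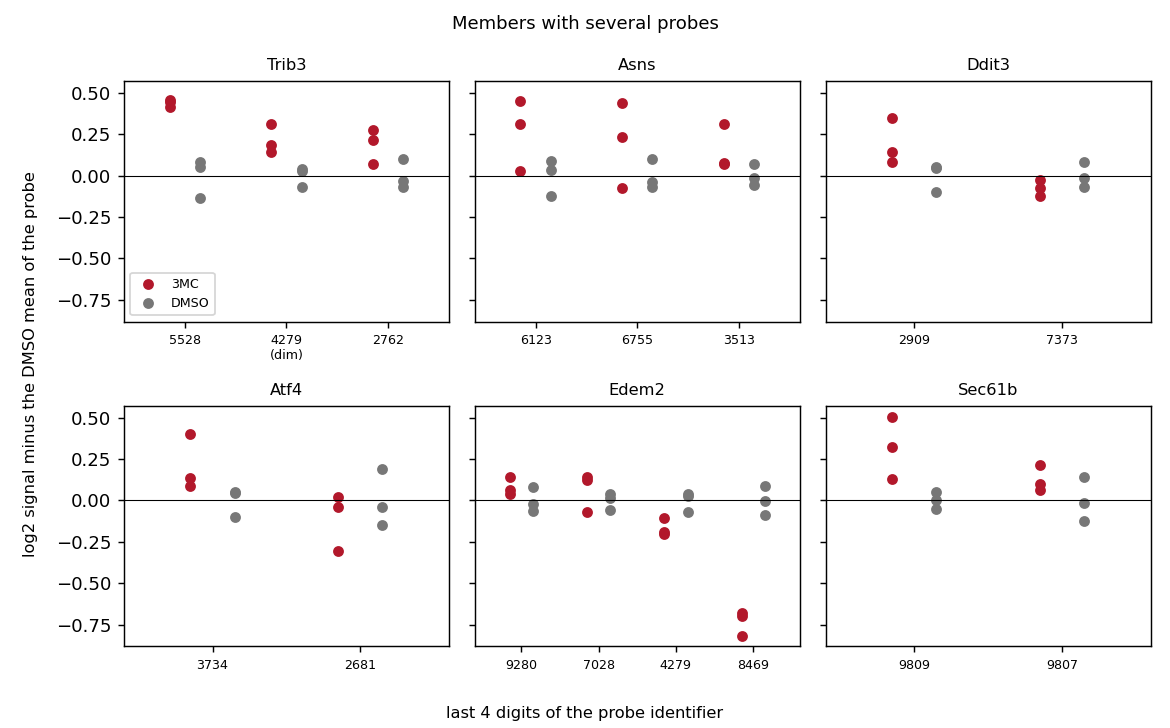
Log2 signal of each array minus the DMSO mean of the same probe (y axis) for 6 members with several probes (x axis, last 4 digits of the probe identifier), 3MC in red and DMSO in grey. The Edem2 probe that fell stands at -0.73 relative to its DMSO mean, while the other Edem2 probes lie between -0.17 and 0.08 on average.

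The arms were set side by side as a description. By share of tested probes that passed in either direction, the values were 0.00% of 3 for the transcription factors Atf4 and Xbp1, 30.0% of 10 for PERK-ATF4 targets, 40.0% of 10 for IRE1-XBP1 targets, 20.0% of 10 for ATF6 targets and 50.0% of 4 for the other folding genes, against 32.2% of all probes tested. No probe of a sensor gene was tested. With so few probes per arm, no order of the arms is read from these shares. In the authors' deposited table the median log2 ratio was 0.12 for Ern1, Atf4 and Xbp1 together, 0.14 for PERK-ATF4 targets, 0.02 for IRE1-XBP1 targets, 0.01 for ATF6 targets and 0.02 for the other folding genes, against 0.00088 for all probes. With median centring the limma medians of all groups but that of Atf4 and Xbp1 and that of the PERK-ATF4 targets were below 0, and the median of all probes was -0.08. Differences between the arms were not tested. Of the 46 member probes, 5 differed by a log2 ratio of 0.32 or more in the authors' deposited table, against 7.44% of all probes (3.65% higher with 3MC and 3.79% lower). In the authors' deposited table they were Calr (ratio 1.57), Pdia6 (1.29), Trib3 (1.28) and Selk (1.27), higher with 3MC, and Edem2 (0.665), lower. The unadjusted p-value of the authors' deposited table was under 0.05 at 12 of the 46, which is 26.1% against 20.2% of all probes. For both comparisons the sets differ in brightness. Of the 46 member probes 37 lay above the median signal, against 12848 of all 25697. Among the probes above it, 29.7% of the members and 32.2% of all passed in limma.

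**Figure D4:**
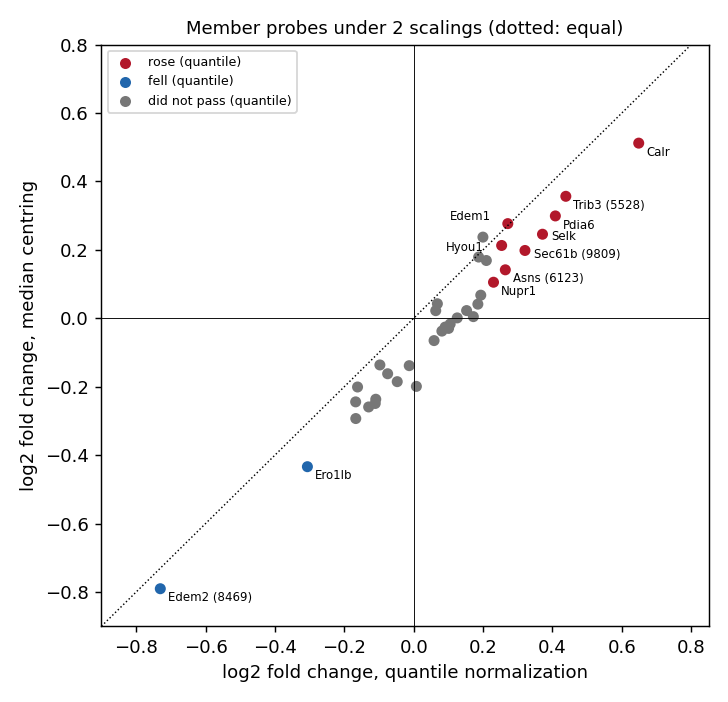
Log2 fold change of each tested member probe after quantile normalization (x axis) and with each array centred on its median (y axis), coloured by its call after quantile normalization, with a dotted line of equal values. Most points lie below the line, and Calr is at 0.65 and 0.51 while Edem2 is at -0.73 and -0.79.

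Genes of the same pathway outside the set gave the wider picture. Of 139 such genes, 122 had an entry, and of their 130 tested probes 28 rose, 14 fell and 88 did not pass, a share of 32.3% beside 32.2% of all probes, with a median log2 fold change of 0.04. Further ATF4-dependent amino acid and stress genes had 9 probes that rose and 4 that fell of 38. Further ER chaperones and oxidoreductases had 6 and 4 of 24, further ERAD genes 1 and 1 of 11, translocation, glycosylation and export genes 7 and 2 of 40, and further sensors, kinases and proteases 5 and 3 of 17.

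The 12 further genes with the largest changes all rose, and 5 of them act in folding, calcium binding or retrieval of proteins of the secretory pathway. Fkbp7, a prolyl isomerase of the ER, had 7.86, 8.20 and 8.15 in the 3MC arrays, against 7.25, 7.24 and 7.38 in the DMSO arrays. The groups were well apart, and it rose 1.72-fold (log2 0.78 ± 0.092, SE, n = 3 per group, adjusted p = 1.90e-08 in limma). Fkbp10, a prolyl isomerase that folds collagen, rose by 0.45 on the log2 scale (adjusted p = 0.000120). Calu, a calcium-binding protein of the secretory pathway, rose by 0.43 at 1 of 3 tested probes, and its others gave 0.20 (adjusted p = 0.0772) and 0.14 (adjusted p = 0.236).

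The KDEL receptors return escaped ER chaperones such as calreticulin from the Golgi. Kdelr3 had 10.03, 10.001 and 10.20 in the 3MC arrays, against 9.03, 9.41 and 9.56 in the DMSO arrays. Kdelr2 had 10.03, 10.10 and 10.22 in the 3MC arrays, against 9.41, 9.50 and 9.40 in the DMSO arrays. Neither overlapped, and they rose 1.67-fold (log2 0.74 ± 0.10, SE, n = 3 per group, adjusted p = 3.89e-07 in limma) and 1.61-fold (log2 0.68 ± 0.086, SE, adjusted p = 7.69e-08). Creb3 and Creb3l1, membrane-bound transcription factors cut in the Golgi as ATF6 is, rose by 0.49 (adjusted p = 3.33e-05) and 0.47 (adjusted p = 6.60e-05) on the log2 scale.

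The remaining 5 of the 12 are stress and amino acid genes that more than 1 pathway controls. Bbc3 (2.38-fold, adjusted p = 2.11e-13), a BH3-only death protein, and Bax (1.64-fold, adjusted p = 4.78e-08), which permeabilises mitochondria, both rose in limma and are p53 targets as well as UPR effectors. Sesn2, a sestrin that restrains growth signalling and is induced by both ATF4 and p53, had 7.97, 7.82 and 7.79 in the 3MC arrays, against 6.81, 6.52 and 6.79 in the DMSO arrays. It rose 2.23-fold at this probe (log2 1.16 ± 0.091, SE, n = 3 per group, adjusted p = 1.27e-12 in limma) and by 0.42 on the log2 scale at its second probe. Slc1a4, a neutral amino acid transporter, rose by 0.69 (adjusted p = 6.45e-07), and Ddit4, an inhibitor of mTORC1, by 0.44 (adjusted p = 0.000254).

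Some general UPR markers outside the 12 are given because they are widely read, and they were picked with their values known. Hspa5 had 6.91, 6.94 and 6.90 in the 3MC arrays, against 6.71, 6.83 and 6.73 in the DMSO arrays, a log2 fold change of 0.16 that did not pass (-0.01 to 0.33, adjusted p = 0.153 in limma) although the groups did not overlap. Hsp90b1, the gene of the ER chaperone GRP94, rose by 0.25 (adjusted p = 0.0276), and Dnajb9, an XBP1-dependent cofactor of BiP, rose by 0.26 (adjusted p = 0.0319), with 3MC replicate 3 inside the DMSO range. Dnajc3, the kinase inhibitor P58IPK, gave 0.03 (adjusted p = 0.850) and Atf3, a stress transcription factor below ATF4, gave -0.05 (adjusted p = 0.696). With median centring 7 of the 13 probes that passed among the 12 named genes still passed.

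The 3MC and DMSO ovaries also differed in markers of cell types. Of 23 tested probes of leukocyte markers 22 fell, by a median of 1.34 on the log2 scale over all 23, and the exception was Ctss. Their mean log2 signal was 7.18 to 7.21 in the 3MC arrays, against 8.53 to 8.59 in the DMSO arrays. Some of these probes were tested only through their DMSO signal. The 3MC means were 6.03, 6.07 and 6.22 at Coro1a probes, 6.15 at Csf1r and 6.26 at Tyrobp, and the median probe had 6.28. The 7 dim probes of the list had log2 fold changes of both signs. They were 0.04 and 0.12 for Ptprc, 0.06 for Fcer1g, 0.09 for H2-Aa, 0.05 for Itgam, -0.48 for Csf1r and -0.19 for Emr1. Of 15 tested probes of theca and stroma markers 8 rose and 1 fell, with a mean log2 signal of 9.65 to 9.74 in the 3MC arrays, against 9.38 to 9.44 in the DMSO arrays. The defining markers of the ovary were mostly above the median signal (14 of 21 granulosa probes and 16 of 18 oocyte probes), and the mean level of each list overlapped between groups. Granulosa markers averaged 8.88 to 8.89 in the 3MC arrays, against 8.84 to 8.90 in the DMSO arrays (4 probes rose and 2 fell of 14), and oocyte markers 9.94 to 9.98, against 9.89 to 9.98 (5 rose and 5 fell of 16). The mean of the oocyte list hides opposite changes, since 62.5% of its tested probes passed, against 32.2% of all probes tested. Those that fell were of Figla (log2 -0.50), Lhx8 (-0.43), Sohlh1 (-0.47 and -0.32) and Nobox (-0.32). Those that rose were of Oosp1 (1.01), Bmp15 (0.44), Zp3 (0.43), Gdf9 (0.25) and Zp2 (0.24). Surface epithelium markers averaged 9.23 to 9.25 in the 3MC arrays, against 9.30 to 9.33 in the DMSO arrays (3 rose and 2 fell of 7), and none of 3 endothelial probes or of 1 red cell probe passed in limma. In such whole-organ samples fewer cells of a type and less RNA per cell cannot be told apart, and the part of these marker shifts in the member results was not tested.

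**Figure D5:**
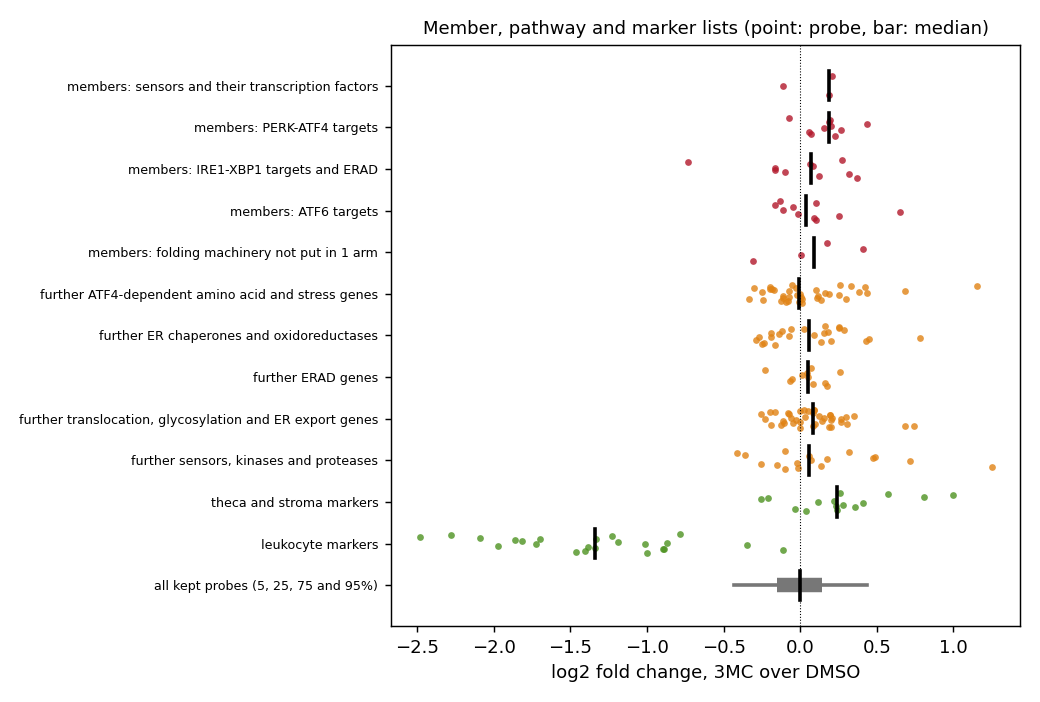
Log2 fold change of 3MC over DMSO (x axis) for every tested probe (points) of the member arms, the further pathway lists and 2 marker lists, with black bars at medians and, for all 12848 probes, a box from the 25th to the 75th and a line from the 5th to the 95th percentile. The medians of the member arms lie between 0.04 and 0.19, and that of the leukocyte markers at -1.34.

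The arrays had a median scanner signal of 124.5, 98.1 and 99.4 in 3MC replicates 1, 2 and 3, against 109.1, 107.9 and 107.8 in the DMSO replicates, so 3MC replicate 1 was the brightest before normalization. After normalization r was 0.987 between 3MC and DMSO arrays and 0.995 to 0.996 between arrays of the same group, over all probes. In the moderated test the spread shared by all probes counted for 30.8 degrees of freedom and that of the single probe for 4. The standard errors of the member probes tested were 0.085 to 0.10 on the log2 scale. An exact permutation test of 3 arrays against 3 could not give a p below 0.10.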

How the data were processed

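The members, their arms and the further lists were chosen with earlier results of these data known. The authors deposited scanner intensity of 25697 probes on 6 arrays, not background subtracted (lowest signal 72.7 to 80.0 per array), a table read as log2 values (medians 6.62 to 6.63), and a sheet with, per the file headers, a ratio, a signed fold change (read here as a score) and an unadjusted p-value of 3MC against DMSO. The submitters' processing notes name lumi. The normalization of the deposited values and the p-value's model are not given in the sources used here.

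Sheet and arrays share no identifier. The sheet was put in order of its own probe-set number and laid against the scanner table in its deposited order, which gave the same log2 ratio within 0.0001 at all 25697 probes (largest difference 8.69e-05), against 16 with the order shifted by 1. Matching by ratio alone linked 2656 probes, all 2656 to the same probe. The match by ratio alone had been planned, and the full link replaced it.

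Intensities were corrected with normexp (offset 50), set to log2, quantile normalized and fitted with limma 3.58.1 (R 4.3.3; lmFit with only the group as a term, then eBayes, two-sided, Benjamini-Hochberg over the 12848 probes above the median mean signal). The fit was tested on simulated data. Of 88 probes shifted by 0.5 on the log2 scale 77.3% were recovered, and of 92 shifted by 1.0 all were. Smaller shifts, as most member probes had, were not simulated, nor were shifts in as large a share of probes as passed here. The number of arrays limits the precision. All members are accounted for, and up to 12 further genes are named, those that passed with the largest absolute log2 fold change. Symbols are those of the sheet. The offset of 50 is added to every intensity, so it narrows fold changes and their intervals more at low signal than at high signal. Other offsets, normalizations, filters, a replicate block and each array left out were tried.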

Additional observations from a re-analysis of the deposited data

How the results depend on the processing

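The number of arrays limits the precision, and probes below the median signal entered no call except with no filter. Calr, Pdia6, Selk, Trib3 (ILMN_1225528) and Edem2 (ILMN_2918469) passed with every array left out in turn, and of these only Edem2 passed with median centring. Over all probes, 4136 calls became 1106 with median centring, 2512 of 6424 with a filter at the 75th percentile and 3339 to 3607 with single arrays left out. Of the members, 11 calls became 1 with median centring, 7 of 24 with the stricter filter, 6 of 6 when linked by ratio alone at a tolerance of 0.0001, and 7 to 10 with single arrays left out, the 7 without 3MC replicate 2. Linked by ratio alone at 5e-05, a setting chosen after seeing the data, 8 of 10 passed. The 34 member probes with intervals within 1.5-fold became 30 to 35 with single arrays left out. In the authors' deposited table, 5 member probes past a log2 ratio of 0.32 became 3 of 29 with 1 mean a symbol and 2 past 1.5-fold. Medians in the authors' deposited table moved for the group of Ern1, Atf4 and Xbp1 from 0.12 to 0.079 (1 mean a symbol) and 0.15 (tested probes only, which leaves out Ern1), for IRE1-XBP1 targets from 0.02 to 0.062 and for the other folding genes from 0.02 to 0.095 (both tested probes only). Among the member probes run under these settings (those matched by accession under median centring only), signs turned at ones that did not pass: with median centring Chac1 (-0.065), Edem2 ILMN_2669280 (-0.037), Herpud1 ILMN_2790241 (-0.029), Creld2 (-0.026 and -0.017), P4hb (-0.20) and, of those matched by accession, Ppp1r15a (-0.11), Vimp ILMN_2712557 (-0.085) and Derl2 ILMN_2685124 (-0.075), with cyclic loess Pdia4 (0.011) and P4hb (-0.017), and with single arrays left out Sel1l ILMN_1244431 (-0.16 to 0.027), Pdia4 (-0.047 to 0.055) and P4hb (-0.063 to 0.054). The labels do not say what the replicate numbers mark. For deviations from the group means, r was -0.08, -0.10 and 0.08 for same-numbered arrays and -0.07 to 0.14 for the others. Deviations within 3 arrays depend on each other, so these values cannot tell whether same-numbered arrays share a culture or day. With the replicate block 3986 probes passed over all and 11 members, the same 11. Apart from the smaller numbers of probes or arrays that some settings test by construction, the cause was not tested. A link by ratio and p-value together was not run, because the authors' p-value could not be recomputed from the deposited values.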
